A study of Saccharomyces cerevisiae with 22 samples.

Results

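Newly made RNA of Hsf1-aa yeast after 60 min in rapamycin was compared with newly made RNA of the same strain at 0 min, before the drug. Its arrays were selected by strain and time, 4 of the 22 in the series, 2 for each time. The drug was given at 0.15 µM, the dose of the series' slow time course, which also holds 15, 30 and 90 min arrays and the same times in the WT-aa strain. Both times of the WT-aa strain, with 2 arrays each, served as the check for what the drug and the hour in it do without the Hsf1 tag.

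Hsf1-aa and WT-aa share the anchor-away background By4742-aa, a MAT alpha strain. In it Tor1 carries the tor1-1 allele and FPR1 is deleted, which takes away the usual growth response to rapamycin, and RPL13A is fused to FKBP12. The markers given for both strains are MET15, his3-1, leu2, lys2 and ura3. Hsf1-aa carries in addition the fusion Hsf1-FRB-yEGFP, at whose FRB part rapamycin ties Hsf1 to the tagged ribosomal protein, so that Hsf1 is drawn out of the nucleus with it. WT-aa has no such fusion. The 0 min group of each strain had no rapamycin. All cultures grew in synthetic complete medium with glucose and were given 4-thiouracil (4tU) at 5 mM for the last 6 min before harvest, so that RNA made in those minutes could be told from older RNA. The labelled RNA was purified, amplified, dyed and hybridised against a common pool, the labelled RNA of WT-aa cultures without drug. The series describes the 2 arrays of a group as independent cultures. They are named by letter here, and the sample RNA was in Cy3 on letter a and in Cy5 on letter b.

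Hsf1 is the transcription factor that turns on chaperone genes of budding yeast in heat and keeps many of them running in unstressed cells. It binds heat shock elements in promoters and is essential for growth. Chaperones of the Hsp70 and Hsp90 families, their J-domain partners and the disaggregase Hsp104 fold, sort and rescue proteins. Several of these genes are also read by other stress factors, such as Msn2 and Msn4.

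Each array held spots for 6388 yeast probes, each spotted 2 times, and 6353 genes or unnamed probes (features) were tested. On the 4 compared arrays, median sample foreground was 1315 and 1562 units at 60 min and 1218 and 1340 units at 0 min. Between 6321 and 6349 features were detected on these arrays. Replicate arrays of a group correlated across features at r = -0.208 to 0.736 over the 20 arrays of the slow time course. In Hsf1-aa letters a and b correlated at r = -0.0691 at 0 min and at r = 0.47 at 60 min. The lowest correlation between arrays with the same dye was -0.388, between letter a of WT-aa at 0 min and at 30 min. The dyes are stated in the labels, so every ratio was read as sample over pool. All values below are log2 ratios of sample to pool, or differences between such ratios, and each ± is a standard error (SE) from limma, with 2 arrays a group (n = 2). Each array is centred on the middle of its own spots, so a change shared by all genes is not seen.

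HSF1 itself (YGL073W, chromosome VII) read -1.63 and -1.46 on the 60 min arrays, against -2.31 and -1.89 on the 0 min arrays of Hsf1-aa. In WT-aa it read -0.04 and 0.01 at 60 min and 0.06 and 0.08 at 0 min. All 4 Hsf1-aa values lay below all WT-aa values, at 0 min too, while the change over 60 min within Hsf1-aa did not pass the test (0.55 ± 0.23, limma adjusted p = 0.228). The design moves the protein and not its RNA, so these values check the tagged gene and not the depletion. Among further genes altered in these strains, TOR1 (-0.22), HIS3 (-0.27), URA3 (-0.01), LEU2 (0.04), LYS2 (0.10) and RPL13A (0.25) did not pass the test over 60 min. MET17, the usual name of the MET15 gene, passed it at 0.29 ± 0.07 (limma adjusted p = 0.0473), and it also passed in WT-aa at 0.42 (limma adjusted p = 0.0118). HIS3, LEU2, LYS2 and URA3 are markers of both strains, and the pool is WT-aa, so their values do not check the strain.

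Chaperone genes fell in Hsf1-aa. All 17 measured genes on a list of well known Hsf1 chaperone targets were lower at 60 min, with a median change of -1.90, the lowest median of the lists described here. The list was chosen with earlier results of these data known, so these values describe it and are not an independent test. In all 17 both 60 min arrays lay below both 0 min arrays, which was so for 19.1% of all features, while 19.8% had both above. Over all features, 100 of 6353 were lower (1.57%) and 26 were higher (0.409%), which together made 126 (1.98%), at a limma p adjusted by Benjamini-Hochberg under 0.05. Of those called, 25 were lower by at least 1 log2 unit and 6 by at least 2, whereas 2 were higher by at least 1. The median over all features was -0.00793. With arrays centred on external control RNA added during amplification, 14 features passed, 14 lower and 0 higher, and 12 of the 17 chaperone targets were among them. The count also moved by over 1.5 times when 1 array was left out: it was 66 without letter a at 60 min, 66 without letter b at 0 min and 77 without letter a at 0 min. It was 222 without either letter of Hsf1-aa at 30 min. The split of the calls moved as well: array weights gave 261 lower and 264 higher, a fit of only the groups compared 486 lower and 553 higher, and a fit without all 4 arrays of 30 min 197 lower and 243 higher.

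The changes measured within letter a and within letter b correlated across all features at r = 0.782 in Hsf1-aa and at 0.206 in WT-aa. These are descriptions across features, which share arrays and dyes. All 126 called features had the same sign in both letters, as had 71.6% of all features. The scatter of both letters shows the called falls strung along the diagonal far below 0.

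**Figure D1:**
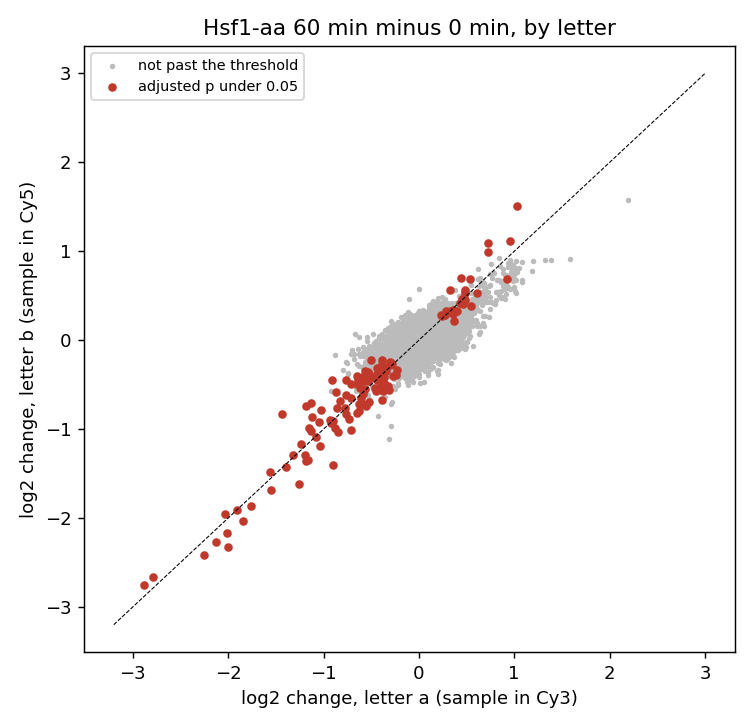
Log2 change from 0 to 60 min in Hsf1-aa on letter b (vertical axis, sample in Cy5) against letter a (horizontal axis, sample in Cy3), 1 point per feature, n = 1 difference per axis. The 126 features past the threshold are red, and all of them lie in the lower left or upper right quadrant. A grey patch of features near 0.9 on both axes did not pass the threshold.

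Among the genes that sort and dissolve misfolded protein, BTN2, which gathers misfolded proteins into deposits, had the largest fall of all features. It read -2.98 and -2.85 at 60 min, against -0.10 and -0.10 at 0 min, a change of -2.82 ± 0.09 or 7.04-fold (limma adjusted p = 2.63e-09). Its relative CUR1 read -2.25 and -2.42 at 60 min and -0.12 and -0.16 at 0 min (-2.20 ± 0.12, limma adjusted p = 2.47e-07). In both genes the 0 min arrays sat close to the untreated pool and the 60 min arrays far below it. HSP42, a small heat shock protein that works with Btn2, read -2.97 and -2.71 at 60 min, against -0.18 and -0.05 at 0 min (-2.72 ± 0.12, 6.61-fold). HSP104, the disaggregase that pulls proteins out of aggregates, read -2.14 and -2.51 at 60 min, against 0.11 and -0.09 at 0 min (-2.34 ± 0.18, 5.05-fold, limma adjusted p = 4.46e-06). The 60 min arrays lay below the 0 min arrays without overlap in each of these 4 genes.

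Both Hsp90 genes fell. HSP82, the more heat-inducible copy, read -1.996 and -2.44 at 60 min, against 0.01 and -0.11 at 0 min (-2.16 ± 0.15, limma adjusted p = 1.38e-06). HSC82, the copy that is abundant in growing cells, read -1.86 and -2.02 at 60 min, against -0.02 and 0.02 at 0 min (-1.94 ± 0.09, limma adjusted p = 4.42e-08). The arrays of the 2 times were separated by well over 1 unit in each gene. These copies are alike in sequence, so that each may lend signal to the other's probe. The Hsp90 helpers on the target list fell as well. AHA1, which speeds the Hsp90 ATPase, changed by -1.90 ± 0.17, and HCH1, a smaller relative of it, by -0.90 ± 0.08, the smallest fall on the list. CPR6, a prolyl isomerase that binds Hsp90, changed by -1.81 ± 0.11, and STI1, which links Hsp70 to Hsp90, by -1.62 ± 0.15.

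The Hsp70 and its partners on the target list also fell. SSA1, a major cytosolic Hsp70, read -1.45 and -1.53 at 60 min, against -0.19 and 0.08 at 0 min (-1.43 ± 0.23, limma adjusted p = 0.00285). Its near copy SSA2 was not analysed here, and SSA1 may take signal from it. Of the SSA1 spots on these 4 arrays, 1 lay near the scanner's ceiling. Of its J-domain partners, SIS1, which is essential, read -1.92 and -1.87 at 60 min, against 0.09 and 0.30 at 0 min, and had the largest fall (-2.09 ± 0.09, limma adjusted p = 1.88e-08). APJ1 changed by -1.26 ± 0.09. YDJ1, the most abundant of them, read -1.19 and -1.60 at 60 min, against -0.29 and -0.20 at 0 min, a change of -1.15 ± 0.23 with the weakest test on the list (limma adjusted p = 0.0202). FES1, a nucleotide exchange factor of Hsp70, changed by -1.52 ± 0.07 with arrays at -1.65 and -1.47 at 60 min and at -0.08 and 0.01 at 0 min. In the mitochondrial matrix, HSP78, the counterpart of Hsp104, changed by -1.99 ± 0.12, and the J-protein MDJ1 by -1.24 ± 0.10.

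**Figure D2:**
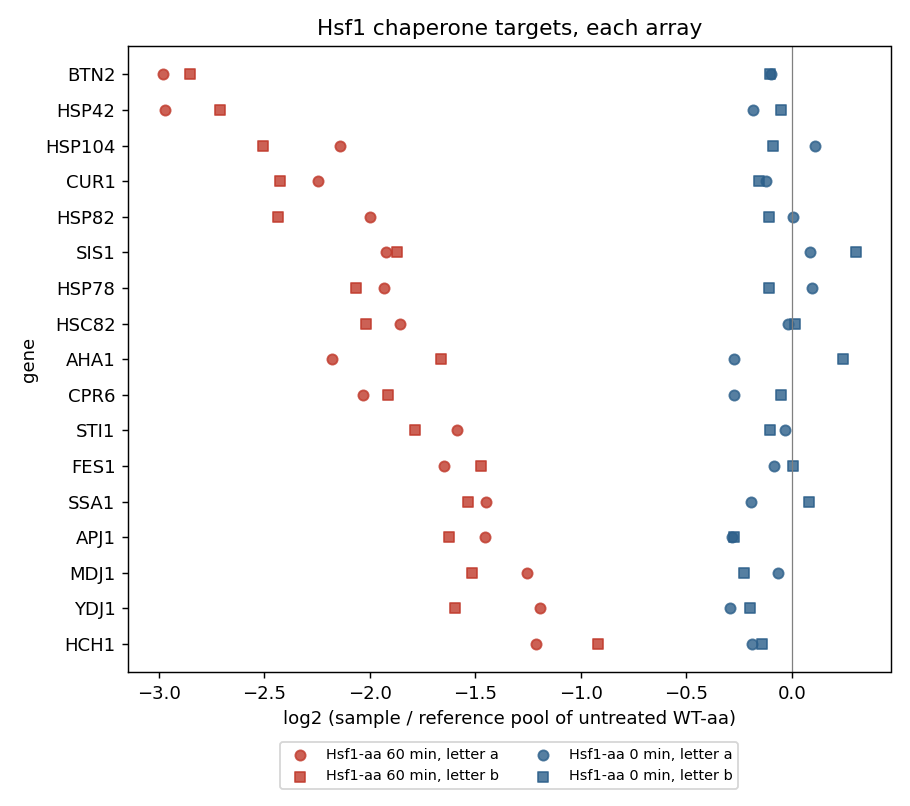
Log2 ratio of sample to untreated WT-aa pool (horizontal axis) for the 17 chaperone targets (vertical axis, ordered by change) on each of the 4 arrays, red for Hsf1-aa at 60 min and blue for Hsf1-aa at 0 min, circles for letter a and squares for letter b. In every gene both 60 min arrays lie left of both 0 min arrays, and the 0 min arrays lie between -0.29 and 0.30.

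In WT-aa none of these 17 genes passed the test over the same hour in rapamycin. Their median change there was -0.265, with all 17 values below 0, in a comparison in which 25 features passed (0.394%), 7 lower (0.11%) and 18 higher (0.283%). The difference between the 2 strains' changes was past the test in the direction of a larger fall in Hsf1-aa for 15 of the 17 genes, with a median of -1.53 over the 17. Over all features this interaction was called for 42 (0.661%), 34 of them lower (0.535%) and 8 higher (0.126%). SSA1 (-1.37 ± 0.32, limma adjusted p = 0.122) and YDJ1 (-0.76 ± 0.33, limma adjusted p = 0.356) were the 2 targets that did not pass it. With centring on the external control RNA, 1 feature passed the interaction and 0 passed in WT-aa (51 unadjusted). Leaving out 1 array gave as few as 7 in WT-aa (without its letter a at 0 min) and 24 for the interaction (without letter b at 0 min of either strain). BTN2 had the largest difference at -2.52 ± 0.13 (limma adjusted p = 7.31e-07), with HSP42 at -2.23, CUR1 at -1.97, HSP78 and HSP104 at -1.88 each and HSP82 at -1.84.

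**Figure D3:**
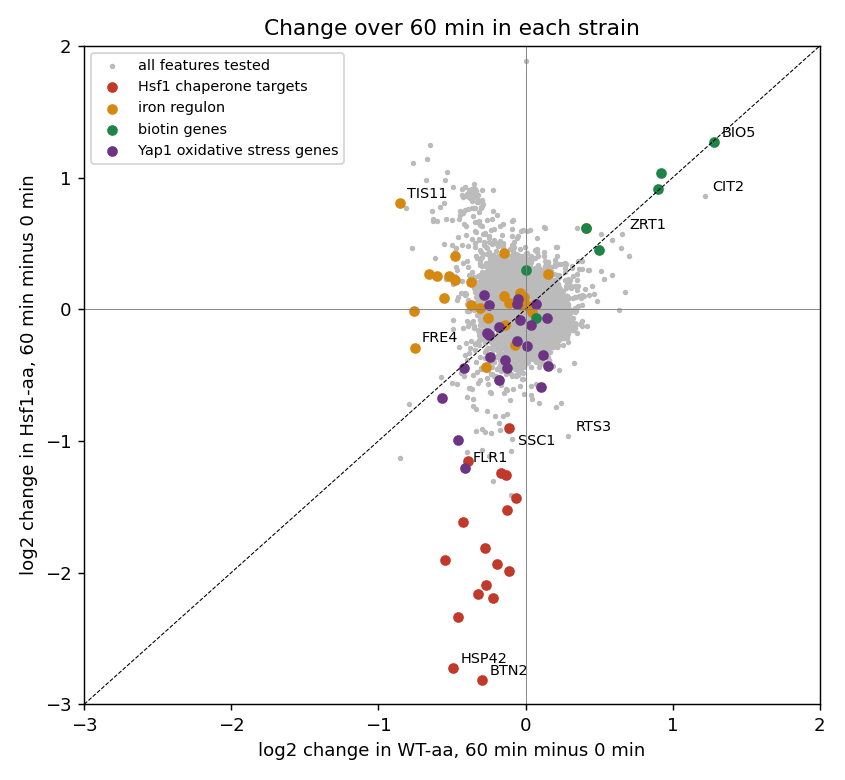
Log2 change from 0 to 60 min in Hsf1-aa (vertical axis) against the same change in WT-aa (horizontal axis), 1 point per feature, means of 2 arrays per group. Chaperone targets (red) lie far below the dashed line of equal change, most biotin genes (green) lie near it, and TIS11 lies in the upper left.

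A further list of 24 measured heat-inducible genes, outside the targets above, held 14 that fell and none that rose (1.57% of all features were lower). Its median change was -0.62. MBF1, a transcriptional coactivator, changed by -1.41 ± 0.12, with arrays at -1.29 and -1.42 at 60 min and 0.10 and 0.00 at 0 min. SSE1, an Hsp110 that exchanges nucleotide on Hsp70, changed by -1.11 ± 0.10. HSP30, a plasma membrane protein, changed by -1.08 ± 0.11. SSC1, the mitochondrial Hsp70, changed by -1.07 ± 0.06 with arrays at -1.03 and -0.95 at 60 min and 0.10 and 0.07 at 0 min. In WT-aa none of the 24 passed, while 0.394% of all features were called there. The interaction was called for 7, all lower, while 0.535% of all features were lower in it. MBF1 (-1.31), SSC1 (-0.97) and SSE1 (-0.86) were among the 7, and HSP30 was not (-0.69, limma adjusted p = 0.0813). Members with little change included SSA3 (-0.06), UBI4 (-0.06), CDC37 (0.01), SBA1 (0.05) and CNS1 (0.16), which were chosen after their values were seen.

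These lists overlap with each other. Of 22 measured genes for mitochondrial chaperones and protein import, 6 fell: HSP78, MDJ1, SSC1, HSP60 (-0.93 ± 0.12, limma adjusted p = 0.000691), its partner HSP10 (-0.92) and ECM10 (-0.47), a relative of SSC1 (1.57% of all features were lower). HSP10 and ECM10 were named after their values were seen. The median of the 22 was -0.15, and none rose past the test. In WT-aa none of the 22 passed, while 0.394% of all features were called there. The interaction was lower for 4 of the 22, while 0.535% of all features were lower in it. HSP60 did not pass it (-0.66, limma adjusted p = 0.267). Translocase members, named after their values were seen, lay between -0.20 (TOM22, TOM40) and 0.32 (TIM23) and did not pass. Of 17 ER folding genes, ERO1, the oxidase that makes disulphides, fell (-0.63 ± 0.10, limma adjusted p = 0.0041), while 1.57% of all features were lower. The median of the 17 was -0.02. ERO1 did not pass the interaction (-0.48, limma adjusted p = 0.356). KAR2, the ER Hsp70, also named afterwards, changed by -0.67 with a limma adjusted p of 0.103. The 8 subunits of the cytosolic chaperonin CCT (median -0.15) and 7 ribosome-associated chaperones (median 0.01) held no call, while 1.98% of all features were called.

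Of 24 genes read by Yap1, the factor of the oxidative stress response, 6 fell (1.57% of all features were lower) and none rose (0.409% were higher), with a median of -0.26. FLR1, a drug exporter, read -1.13 and -0.91 at 60 min, against 0.11 and 0.25 at 0 min (-1.20 ± 0.11, limma adjusted p = 2.56e-05). OYE3, an NADPH oxidoreductase, read -0.60 and -0.37 at 60 min and 0.52 and 0.49 at 0 min (-0.996 ± 0.10, limma adjusted p = 7.76e-05), so that it stood above the pool before the drug. GTT2, a glutathione transferase, changed by -0.67 ± 0.14 and YCF1, a vacuolar pump for glutathione conjugates, by -0.54 ± 0.11. In WT-aa the list had a median of -0.13 and no call, while 0.394% of all features were called there. The interaction was called for FLR1 alone on the list (-0.79 ± 0.16, limma adjusted p = 0.0438), a call that 14 of 34 alternative settings kept. OYE3 and GTT2 did not pass it.

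Of 25 general stress genes of Msn2 and Msn4, HSP12 (-0.60 ± 0.12, limma adjusted p = 0.022) and HSP26 (-0.46 ± 0.09, limma adjusted p = 0.0142), both heat shock proteins, were the members that fell. Over all features 1.57% were lower. The median of the 25 was -0.23 and 24 of the changes were below 0, against a median of -0.02 in WT-aa. HSP26 also passed the interaction (-0.69, limma adjusted p = 0.0225), a call that 22 of 34 alternative settings kept. At 15 min the list's median change was 0.399 in Hsf1-aa and 0.382 in WT-aa. HSP12 changed by 1.09 in Hsf1-aa and by 0.78 in WT-aa at 15 min, and its Hsf1-aa arrays read 0.06 and -0.10 at 0 min, 1.12 and 1.03 at 15 min, and -0.70 and -0.55 at 60 min.

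Of 16 glycolysis genes 3 fell (1.57% of all features were lower), with a median of -0.29. In WT-aa, where 0.394% of all features were called, none passed. The median there was -0.14 and 14 of the 16 changes were below 0. PGK1, phosphoglycerate kinase, read -1.18 and -0.81 at 60 min, against -0.25 and 0.08 at 0 min (-0.91 ± 0.10, limma adjusted p = 7.71e-05). It passed the interaction (-0.74, limma adjusted p = 0.0225), a call that 25 of 34 alternative settings kept. ENO2, an enolase (-0.44), and GPM1, phosphoglycerate mutase (-0.39), were the others, and neither passed the interaction. Of 32 proteasome genes, RPN2 (-0.46), PRE3 (-0.44) and RPT1 (-0.27) fell (1.57% of all features were lower), at a median of -0.16, and none passed the interaction. In WT-aa none passed, at a median of -0.11 with 28 of the 32 changes below 0. RPN4, the transcription factor for proteasome genes, changed by -0.81 and was on the heat-inducible list. It passed the interaction at -0.66 and was named after its value was seen.

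**Figure D4:**
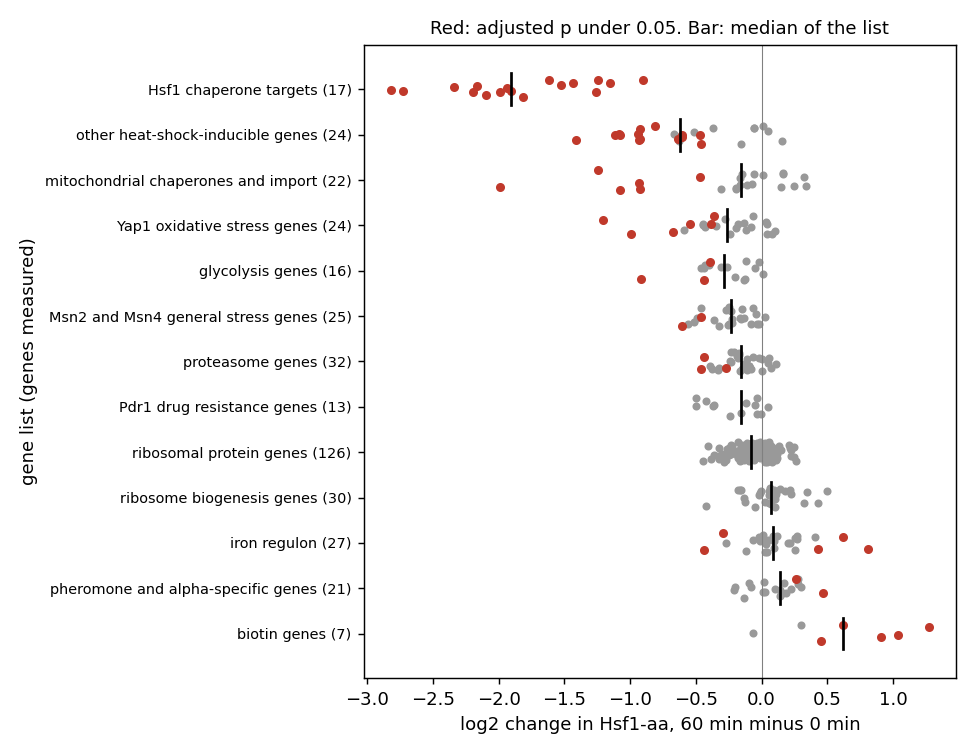
Log2 change from 0 to 60 min in Hsf1-aa (horizontal axis) for every measured member of 13 gene lists (vertical axis, number of genes in brackets), 1 point per gene, with red for an adjusted p under 0.05 and a black bar for the median. The chaperone targets are all red and below -0.8, the ribosomal protein genes hold no red point, and 5 of 7 biotin genes are red above 0.

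Of the 26 features that rose, 12 rose in WT-aa too. Of 7 biotin genes 5 rose in Hsf1-aa (0.409% of all features were higher), and 5 rose in WT-aa (0.283% of all features were higher). Both 60 min arrays lay above both 0 min arrays for 6 of the 7 in Hsf1-aa, against 19.8% of all features. BIO5, a transporter of biotin precursors, read 0.88 and 1.33 at 60 min, against -0.16 and -0.17 at 0 min (1.27 ± 0.10, limma adjusted p = 4.6e-06). BIO3 (1.04 ± 0.07) and BIO4 (0.91 ± 0.08), enzymes of biotin synthesis next to it on chromosome XIV, rose with it. VHT1, the biotin importer (0.62 ± 0.06), rose too, as did BIO2, biotin synthase (0.45), which was named after its value was seen. The change in WT-aa was 1.28 for BIO5, 0.92 for BIO3 and 0.90 for BIO4. The strains' changes differed by -0.01 for BIO5, with a 95% interval of -0.31 to 0.28, and no biotin gene passed the interaction.

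CIT2, the peroxisomal citrate synthase and a marker of the retrograde pathway from mitochondria, read 1.23 and 1.47 at 60 min, against 0.51 and 0.47 at 0 min (0.86 ± 0.08, limma adjusted p = 1.65e-05). It rose in WT-aa by 1.22, from arrays that read 1.22 and 1.28 at 60 min and -0.06 and 0.12 at 0 min. The 60 min arrays of the 2 strains thus stood at like values, while Hsf1-aa was above the pool before the drug. The interaction was -0.37, with a 95% interval of -0.60 to -0.13, and did not pass (limma adjusted p = 0.356). CIT2 was the member called among 16 retrograde and citrate cycle genes in Hsf1-aa, against 4 in WT-aa. ZRT1, the high-affinity zinc importer, rose by 0.57 ± 0.07, and by 0.66 in WT-aa. It was the member called among 12 zinc genes in Hsf1-aa. Beside these counts, 0.409% of all features were higher in Hsf1-aa and 0.283% in WT-aa.

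Smaller rises were seen in STR3 (0.57), which makes homocysteine from cystathionine, in AAD10 (0.53), a putative aryl-alcohol dehydrogenase, and in CLB1 (0.47), a mitotic cyclin. ADE17 (0.47), an enzyme of purine synthesis, and GTO3 (0.50), a glutathione transferase, also rose. In WT-aa AAD10 changed by 0.59 and passed the test there too, and STR3 changed by 0.51. The WT-aa change was 0.20 for CLB1, 0.21 for ADE17 and -0.34 for GTO3. The call of GTO3 (limma adjusted p = 0.0453) was kept under 15 of 35 alternative settings, and those of MET17 under 11, URA7 under 16 and RPN2 under 17. Of 21 pheromone and alpha-specific genes, FIG1 (0.26) and PRM6 (0.46) rose. In WT-aa 2 members of the list rose, PRM6 (0.65) among them, while FIG1 (0.23) did not pass. URA7 (-0.31), a CTP synthase, fell and FCY2 (0.35), a purine and cytosine permease, rose among 13 pyrimidine genes. HXT2 (-0.56), a glucose transporter, fell among 5 hexose transporters, and SOD1 (-0.36), which guards against superoxide, fell among 11 copper genes. Over all features 1.57% were lower and 0.409% higher in Hsf1-aa, and 0.283% were higher in WT-aa. A single call in so short a list describes that gene and not the list.

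Genes of the iron regulon import iron or spare it and are turned on by Aft1 when iron is short. Of 27 measured members, 3 rose in Hsf1-aa (TIS11, VHT1, FRE1) and 2 fell (CTH1, FRE4), with a median of 0.08, while 0.409% of all features were higher and 1.57% lower. In WT-aa 5 fell and 1 rose, with a median of -0.26, while 0.11% of all features were lower and 0.283% higher. TIS11, whose product leads mRNAs of iron-using proteins to decay, read 0.10 and 0.26 at 60 min, against -0.82 and -0.44 at 0 min in Hsf1-aa (0.81 ± 0.11, limma adjusted p = 0.000892). In WT-aa it read -0.71 and -0.91 at 60 min and 0.01 and 0.08 at 0 min (-0.86, limma adjusted p = 0.00282). The groups did not overlap in either strain and lay in opposite orders, and the changes differed by 1.66 ± 0.15 (limma adjusted p = 7.7e-05), the largest of the 8 positive differences called.

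The interaction was higher for 8 features, 0.126% of all 6353. Of these 8, 6 were among the 27 measured members of the iron regulon. They were TIS11, the iron permease FTR1 (0.88), the siderophore importer ENB1 (0.78), the copper pump CCC2 (0.70), the reductase FRE1 (0.57) and the reductase FRE4 (0.46). The other two were GTO3 (0.85) and VMR1 (0.73), a vacuolar transporter. Over 60 min in Hsf1-aa, FTR1 (0.40), ENB1 (0.26) and CCC2 (0.22) did not pass the test, and in WT-aa ENB1 (-0.52) and CCC2 (-0.48) fell while FTR1 (-0.48) did not pass. FRE4 fell in both strains, by -0.29 ± 0.06 in Hsf1-aa and by -0.75 in WT-aa, and it read -0.24 and -0.25 in Hsf1-aa already at 0 min. FRE1 rose by 0.43 ± 0.07 in Hsf1-aa and did not pass in WT-aa (-0.15). CTH1, a relative of TIS11, fell by 0.44 on the log2 scale and did not pass the interaction. FIT2, a cell wall protein of iron uptake, fell in WT-aa (-0.76) and changed by -0.01 in Hsf1-aa, and its interaction of 0.75 did not pass (limma adjusted p = 0.272). The interaction call of FTR1 was kept under 15 of 34 alternative settings, that of GTO3 under 16, that of FRE4 under 21 and that of FRE1 under 23. The number of higher interactions was itself 27 with array weights and 207, beside 90 lower, without all 4 arrays of 30 min.

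Of all features 1.98% were called over 60 min in Hsf1-aa, a share at which a short list can easily hold none. Several large programmes held no call there. These were 126 ribosomal protein genes (median -0.08), 30 ribosome biogenesis genes (0.07), 28 amino acid synthesis genes of Gcn4 (-0.02), 24 nitrogen catabolite repression genes (-0.05) and 15 phosphate genes (-0.05). The same held for 32 respiratory chain and ATP synthase genes (-0.05), 25 ergosterol genes (-0.05), 23 cell wall integrity genes (0.09), 24 cell cycle genes of the G1/S transition (0.05), 10 histone genes (-0.05) and 13 drug resistance genes of Pdr1 (-0.16). The members furthest from 0 included SED1 (0.65 ± 0.26, limma adjusted p = 0.22), IMP3 (0.50), TPO1 (-0.50 ± 0.14, limma adjusted p = 0.0979) and SNQ2 (-0.50). Among ribosomal protein genes, many of which are near-identical pairs, RPS27B (-0.44) and RPS29A (-0.41) were the furthest. Of the 126, 87 changes were below 0 in Hsf1-aa, against 36 in WT-aa. Their interactions were below 0 in 100, and none passed the test.

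Of the 100 features that fell in Hsf1-aa, 34 also differed from WT-aa in that direction, 2 also fell in WT-aa (SIP5 and FRE4), and FRE4 differed in the opposite direction. For 64 of them neither held. The median change of the 100 was -0.639 in Hsf1-aa and -0.166 in WT-aa. SIP5, whose product binds the kinase Snf1, changed by -0.72 ± 0.11 in Hsf1-aa and by -0.79 in WT-aa. Of the 26 that rose, 3 also differed from WT-aa (TIS11, FRE1, GTO3), 12 also rose in WT-aa and 11 did neither. Their median was 0.461 in Hsf1-aa and 0.29 in WT-aa.

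Of the 126 features, 61 were members of a list and 65 of none, and 18 were unnamed probes, 17 of them lower. NCE103, RTS3, TAH11 and SGT2, which are on none of the lists, fell by about 1 log2 unit and were picked after their values were seen. NCE103, carbonic anhydrase, read -1.05 and -0.82 at 60 min, against 0.39 and 0.01 at 0 min (-1.13 ± 0.20, limma adjusted p = 0.00836). It read -0.61 and -1.04 at 60 min in WT-aa, against 0.05 and 0.01 at 0 min, and its interaction was -0.28 (limma adjusted p = 0.568). RTS3 fell by 0.97 on the log2 scale and stood higher at 60 min in WT-aa (0.30 and 0.16) than at 0 min (-0.04 and -0.07), with an interaction of -1.25 (limma adjusted p = 0.00175). TAH11, a licensing factor of DNA replication, fell by 0.98 on the log2 scale (limma adjusted p = 1.14e-05), and SGT2, a factor of tail-anchored protein insertion, by 0.91.

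TAH11 lies next to SSC1 on chromosome X with the start sites facing away from each other, so that they share an upstream region. Among 4669 neighbouring pairs of named genes with both tested, 178 had 1 called gene and 9 had both called. MTQ1 (-0.80) beside YDJ1 and ZPR1 (-0.77) beside YGR210C (-0.41) were further divergent pairs in which both fell, and GPM2 (-0.69) and RPN4 formed a convergent one. HSC82 (lower) and YMR187C (0.44, higher) were convergent and moved in opposite directions, as did CUR1 (lower) and TDA6 (0.33, higher) in tandem. TDA6 was also called with its other neighbour TPO3 (0.37). The BIO5, BIO4 and BIO3 pairs made up the rest of the 9. These pairs were listed after their values were seen.

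The other times are given here as values, with no test. The median of the 17 targets was -0.18 at 15 min, -0.717 at 30 min, -1.90 at 60 min and -2.31 at 90 min, each against the same 0 min arrays. BTN2 changed by -1.69 at 30 min and -3.26 at 90 min, whereas HSP82 changed by -0.75 at 30 min and -3.10 at 90 min. SSC1 changed by -0.67 at 30 min, -1.07 at 60 min and -1.19 at 90 min. TIS11 changed by 0.22 at 15 min, 0.33 at 30 min, 0.81 at 60 min and 0.48 at 90 min in Hsf1-aa, and in WT-aa by -0.24, -0.60, -0.86 and -1.27 at these times.

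**Figure D5:**
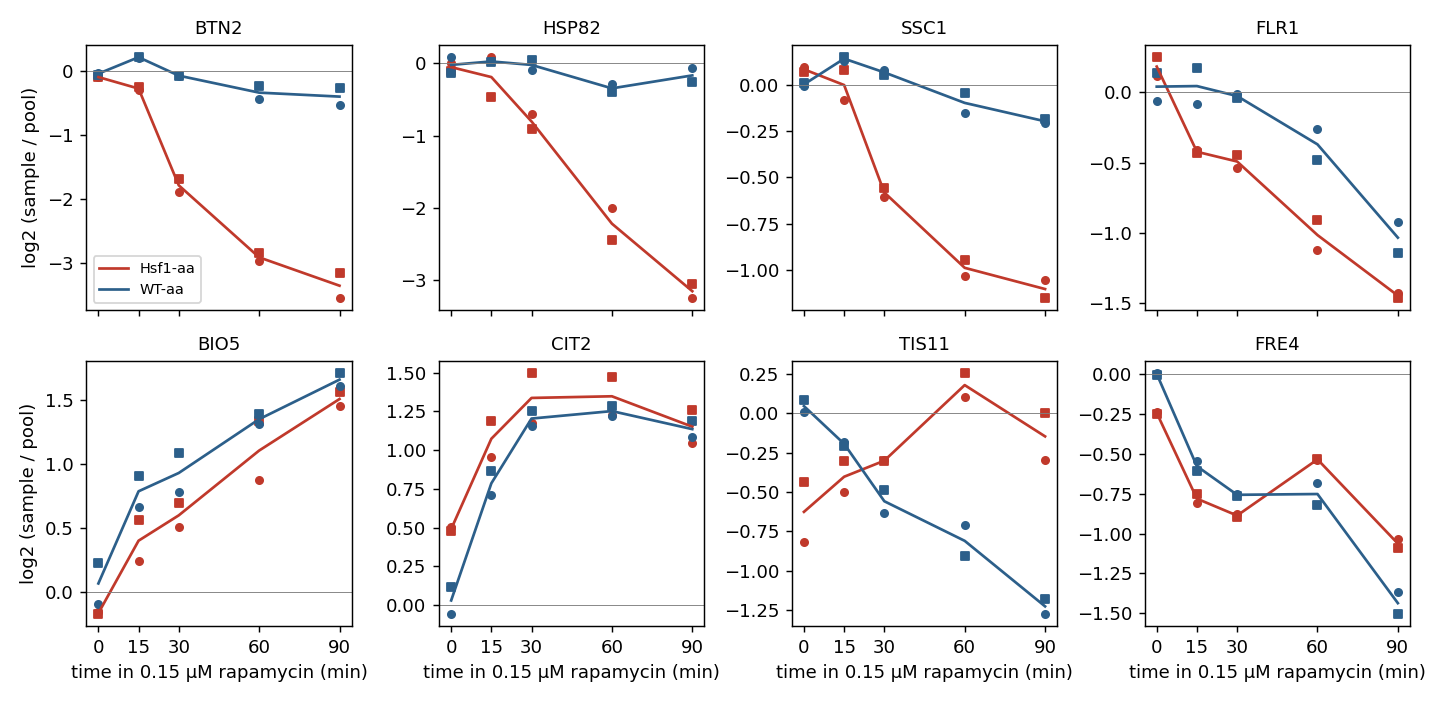
Log2 ratio of sample to pool (vertical axis, its own range in each panel) against time in 0.15 µM rapamycin in min (horizontal axis) for 8 genes in Hsf1-aa (red) and WT-aa (blue), with 2 arrays per time (circles for letter a, squares for letter b) and lines through their means. BTN2, HSP82 and SSC1 drop in Hsf1-aa and stay closer to 0 in WT-aa, BIO5 and CIT2 climb in both, and TIS11 takes opposite directions.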

How the data were processed

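Per the file headers, the deposited scanner files give linear intensity for both dyes at each spot, not background-subtracted, and the local background separately. A deposited table of log2 ratios of Cy5 to Cy3, of unstated normalization, served as an alternative. It correlated at r = 0.631 to 0.971 with the ratios computed here. Spots were background-corrected (normexp, offset 50), loess-normalised array by array (weight 0 for control spots), turned to sample over pool and averaged per gene. Features were kept if detected (2 background SDs) on at least 2 of the 20 slow arrays. One limma model (version 3.58.1, in R 4.3.3; lmFit, eBayes) covered these arrays, with a mean for each of 10 groups and a dye term (residual df 9, with prior 12.55). Tests were two-sided, with Benjamini-Hochberg adjustment over 6353 features and a threshold of 0.05. Dye and letter are one factor, so the dye term is also the replicate block. Letter deviations of Hsf1-aa at 60 and 0 min correlated at r = 0.75, and at 0.0754 once the dye mean was removed. If the letters were dye swaps of one culture, p-values would cover technical spread only. The fit was tested on simulated data.

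Named genes were every chaperone target and strain construction gene, the 12 largest falls and rises with both letters of one sign, up to 4 called members of each other list (or 2 uncalled), the 6 largest interactions and the 4 largest WT-aa changes in each direction. Genes outside this rule are said to be picked afterwards. The comparison and lists were chosen with earlier results of these data known. Of 6388 probes, 1062 have no gene symbol. Promoter motifs were not counted, and no sequence was used here. The number of arrays limits the precision.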

Additional observations from a re-analysis of the deposited data

Results flagged for a closer look

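The genes below were picked from the named genes because the test of the difference between the 2 strains' changes over 60 min (Hsf1-aa minus WT-aa, log2, limma adjusted p under 0.05 with n = 2 arrays per group) passed. Over all features 34 were lower in this test, 3 of them unnamed probes, and 8 were higher. The lower genes given here are not the full set: RTS3 and RPN4, described above, passed too. Among chaperones and their helpers, the difference was -2.52 for BTN2, -2.23 for HSP42, -1.97 for CUR1, -1.88 for HSP78, -1.88 for HSP104, -1.84 for HSP82, -1.83 for SIS1 and -1.75 for HSC82. It was -1.53 for CPR6, -1.40 for FES1, -1.36 for AHA1, -1.19 for STI1, -1.12 for APJ1, -1.08 for MDJ1, -0.97 for SSC1, -0.86 for SSE1, -0.79 for HCH1 and -0.69 for HSP26. Among other genes lower in this test it was -1.31 for MBF1, -0.79 for FLR1 and -0.74 for PGK1. Of 34 alternative settings, 25 kept the call of PGK1, 26 that of AHA1 and 27 that of STI1. Among genes higher in it, the iron regulon members had 0.46 (FRE4), 0.57 (FRE1), 0.70 (CCC2), 0.78 (ENB1), 0.88 (FTR1) and 1.66 (TIS11). The transporter VMR1 had 0.73 and GTO3 had 0.85. No group had enough arrays to look for a single deviating one.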

How the results depend on the processing

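Of the named genes, 12 kept their Hsf1-aa call under all 35 alternatives tried: BTN2, CPR6, CUR1, FES1, HSC82, HSP104, HSP42, HSP78, HSP82, MBF1, SIS1 and STI1. Against 126 features called in Hsf1-aa, 25 in WT-aa and 42 in the interaction, centring on external control RNA gave 14, 0 and 1, and it moved the median of all features to -0.0806, -0.206 and 0.0985. Unadjusted, 51 WT-aa features then had p under 0.05. Array weights gave 525, 43 and 70, and the fit without the replicate block (no dye term) gave 63, 9 and 19. The arrays of 1 strain alone gave 71 and 12. Only the groups compared gave 1039 in Hsf1-aa with 1 residual degree of freedom, and 0 in WT-aa (497 unadjusted). Leaving out 1 array at a time gave 66 to 222, 7 to 28 and 24 to 62. WT-aa had 7 without its letter a at 0 min, 12 without letter a at 60 min, and 13 without letter b at either time. The interaction had 24 without letter b at 0 min of either strain and 27 without letter a at 0 min of either. Without all 4 arrays of 30 min, chosen after seeing the data, the counts were 440 and 297, with 197 of the 440 lower and 243 higher, and 90 of the 297 lower and 207 higher. Small uncalled changes turned sign: FIT2 to 0.0215 and URA3 to 0.0443 with median centring. With 1 array left out, FIT2 ranged from -0.155 to 0.127, URA3 from -0.0409 to 0.0195 and LEU2 from -0.0118 to 0.0962. The cause of these moves was not tested. Slide or scan as a block was not run, since the headers give neither.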

Other observations

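A block of features stood higher at 60 min in Hsf1-aa without passing the test. With a limit of 0.7 log2 units set after seeing the data, 62 features were higher by at least that size and had a limma adjusted p of 0.0685 to 0.33, against 5 that passed. On the side of falls, 44 features passed at that size and 2 did not. Of the 62, 37 were unnamed probes. In all 62 both 60 min arrays lay above both 0 min arrays, which was so for 19.8% of all features. The 62 were picked by their change on these same arrays, so this separation is no independent check. On letters a and b of Hsf1-aa their median was -0.23 and 0.05 at 0 min, 0.80 and -0.23 at 30 min, and 0.75 and 0.83 at 60 min. On those of WT-aa it was 0.39 and 0.06 at 0 min, -0.88 and 0.07 at 30 min, -0.50 and 0.14 at 60 min, and 0.70 and 0.67 at 90 min. The letters of a group thus lay up to about a log2 unit apart, and the median SE of these features was 0.343. Without the 4 arrays of 30 min, 55 of the 62 passed. The largest was YJR154W, also picked after its values were seen. It read 1.67 and 1.29 at 60 min, against -0.52 and -0.29 at 0 min (1.88 ± 0.47, limma adjusted p = 0.0685). It changed by 0.00 in WT-aa at 60 min and by 1.65 there at 90 min. What these features share was not tested.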
